A study of Arabidopsis thaliana with 18 samples.

Results

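DREB2A, MBF1C and HSFA8 are 3 regulators of transcription that Arabidopsis thaliana uses under heat and related stresses, and their transcript levels were followed over 18 ATH1 arrays of light-grown Arabidopsis cell suspension culture (ACSC). They were found by their AGI locus numbers, AT5G05410 for DREB2A, AT3G24500 for MBF1C and AT1G67970 for HSFA8, in the study's own tables of transcripts changed by Rose Bengal (RB) or H2O2, since the annotation of the platform does not list their probe sets. Each is represented by 1 probe set that matches 1 locus, so 3 of the 22810 probe sets on the array are described. The genes had been picked with their response to RB and H2O2 on these same arrays known. Their values and test outcomes under RB, under H2O2 and between the control cultures are therefore given as a description. For these 3 genes p-values are given only for the comparisons within the Methyl Violet and Indigo Carmine set of arrays.

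The cells were kept in liquid medium in an illuminated shaker, and each group holds 3 arrays labelled as biological replicates. The groups were RB at 0.5 μM for 30 min, H2O2 at 500 μM for 30 min (HP), the untreated control of RB and HP, Methyl Violet at 0.5 μM for 30 min (MV), Indigo Carmine at 0.5 μM for 30 min (IC), and the untreated control of MV and IC. MV carries that name in the sample labels, whereas the methods call it Methylene Violet. RB, MV and IC are dyes that make singlet oxygen when they absorb light, and H2O2 is a reactive oxygen species that was added directly. The labels allow either high light or darkness during the treatment without saying which array had which. The methods give continuous illumination, and the study describes its light as low to medium. With whole-culture RNA, a change in the number of cells that express a gene and a change in RNA per cell cannot be told apart.

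DREB2A is an AP2/ERF-type transcription factor that binds the dehydration-responsive element and switches on drought- and heat-inducible genes. Its protein is kept unstable in unstressed plants, and it acts upstream of the heat shock factor gene HSFA3. MBF1C is a transcriptional coactivator of the multiprotein bridging factor family that plants need for thermotolerance. HSFA8 belongs to class A of the heat shock factors, the activator class that binds heat shock elements in the promoters of chaperone genes.

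The deposited values were log2 RMA signals between 2.43 and 13.69, with array medians between 4.92 and 5.15. Replicates correlated with r between 0.964 and 0.991 over all probe sets, and the lowest r was between 2 arrays of the control of RB and HP. Deviations from the group mean were also widest there, with root mean squares of 0.302 to 0.358 per array. The arrays of the other control group had 0.192 to 0.238. Of the marker transcripts listed, RCA (Rubisco activase), a marker of green plastids, lay between 10.24 and 11.56. FAMA, a guard cell regulator listed for other cell types, lay between 2.92 and 3.59. The xylem transcript IRX3 lay between 5.92 and 9.44, with medians of 6.90 in RB and 8.12 in the control of RB and HP. XCP1, of xylem too, lay between 7.71 and 12.44, with medians of 9.29 in RB and 10.44 in that control. Both xylem transcripts are named only through the study's tables. The part that the mix of cells has in the values below was not tested. The other 13 listed markers, all those of dividing cells among them, are not named in the annotation used here.

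DREB2A had its highest levels in RB, where the 3 replicates read 10.09, 8.84 and 10.46 on the log2 scale. In HP they read 7.26, 6.84 and 7.15, and in the control of RB and HP 4.48, 4.04 and 4.94. These 9 arrays fell into 3 separate ranges, with every RB array above every HP array and every HP array above every control array. The mean level was 9.79 ± 0.849 in RB, 7.08 ± 0.213 in HP and 4.49 ± 0.449 in the control (SD, n = 3 each). RB minus control was thus 5.31 on the log2 scale (95% interval 4.15 to 6.46), or 39.6-fold. HP minus control was 2.60 (1.44 to 3.75), or 6.05-fold. The control mean lay below the lowest array median of 4.92, so both folds rest on a low control signal. RB stood 2.71 above HP. Between arrays of the same replicate number, RB exceeded control by 5.61, 4.79 and 5.52 and HP exceeded control by 2.78, 2.80 and 2.21, so replicate 2 gave the smallest RB difference but not the smallest HP difference.

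MBF1C was also ordered RB, HP, control, with more spread. Its log2 signals were 11.09, 9.89 and 11.48 in RB, 8.84, 9.05 and 10.03 in HP, and 7.16, 5.75 and 8.17 in the control of RB and HP. The highest HP array, replicate 3, lay above the lowest RB array, replicate 2, so RB and HP overlapped, while both lay wholly above the control. Group means were 10.82 ± 0.828 in RB, 9.31 ± 0.636 in HP and 7.03 ± 1.22 in the control (SD, n = 3 each). RB minus control was 3.79 (2.52 to 5.07), or 13.9-fold, HP minus control was 2.28 (1.00 to 3.55), or 4.85-fold, and RB minus HP was 1.52. The difference between arrays of the same number was 3.93, 4.14 and 3.31 for RB and 1.67, 3.30 and 1.86 for HP. Replicate 2 of the control, the lowest MBF1C array of all, thus set the largest of both.

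HSFA8 spanned a narrower range. It read 8.86, 8.66 and 8.67 in RB, 7.87, 7.15 and 7.74 in HP, and 7.42, 6.38 and 7.29 in the control of RB and HP. All 3 RB arrays lay above every other array of the series, whereas HP and control overlapped. Mean levels were 8.73 ± 0.116 in RB, 7.59 ± 0.387 in HP and 7.03 ± 0.566 in the control (SD, n = 3 each), which gives 1.70 for RB minus control (1.17 to 2.23), or 3.24-fold, 0.55 for HP minus control (0.02 to 1.08) and 1.14 for RB minus HP. Without replicate 2 of the control, HP minus control for HSFA8 was 0.23. Within replicate numbers, HP exceeded control by 0.45, 0.76 and 0.45, and RB exceeded control by 1.44, 2.28 and 1.37. Replicate 2 was the lowest HSFA8 array in RB, in HP and in their control.

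**Figure D1:**
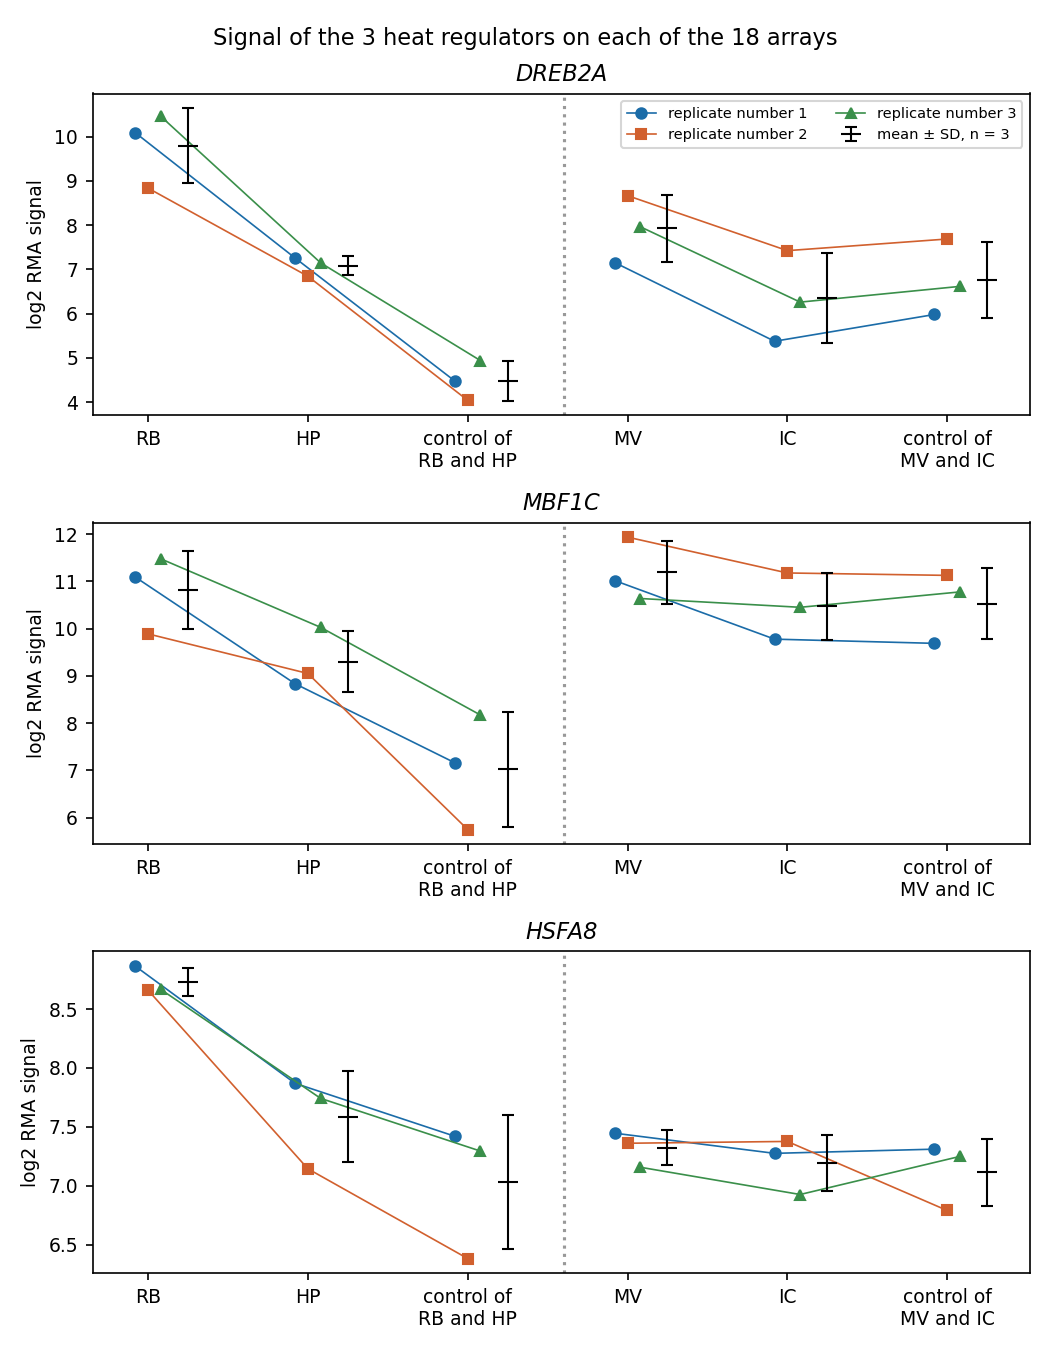
Log2 RMA signal (y axis) of DREB2A, MBF1C and HSFA8 on each of 18 arrays in 6 groups (x axis), with arrays of the same replicate number joined within each set of 9 and the mean ± SD of 3 arrays beside each group. DREB2A falls into 3 separate ranges for RB, HP and their control, HSFA8 is apart from all other groups only in RB, and MBF1C and DREB2A are higher in the control of MV and IC than in the control of RB and HP.

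In the limma fit over 22746 probe sets, 3 of the 3 genes were called higher in RB than in control, where 1.44% of all probe sets were called higher. For HP it was 1 of 3, DREB2A, against 0.629% of all probe sets, and for RB minus HP 2 of 3, DREB2A and HSFA8, against 0.853%. With the replicate number as a block the counts were 3 of 3 for RB (against 3.56%), 2 of 3 for HP (DREB2A and MBF1C, against 1.77% of all probe sets) and 3 of 3 for RB minus HP (against 2.29%). The genes had been chosen on these same contrasts, so nothing is read from the counts, and RB and HP share their control arrays.

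The comparisons among MV, IC and their own control were no part of the rule that chose the genes and were tested, 9 comparisons in all. Earlier results of these data were known when the genes were chosen, so these tests are not shown to be independent of that choice. DREB2A was higher after MV than after IC in each of the 3 pairs of arrays. Its log2 signals were 7.15, 8.67 and 7.96 in MV, 5.38, 7.42 and 6.26 in IC, and 5.98, 7.69 and 6.62 in their control. The groups overlapped because the replicates were far apart, but the order of replicates was 1, 3, 2 from low to high in all 3 groups. Taken within replicate numbers, MV minus IC was 1.78, 1.24 and 1.70, MV minus control was 1.17, 0.98 and 1.35, and IC minus control was -0.60, -0.26 and -0.36. Each MV array was therefore above, and each IC array below, the control array of its own number.

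In the fit without a block, MV minus IC for DREB2A was 1.57 (SE 0.544, 95% interval 0.42 to 2.73), or 2.98-fold. Its adjusted p was 1.00 (limma, two-sided, Benjamini-Hochberg over 22746 probe sets), so the gene was not called, and it ranked 49 by unadjusted p. No probe set at all was called in MV minus IC (0%), and 448 (1.97%) had an unadjusted p under 0.05. With the replicate number as a block the difference kept its value with SE 0.202 (1.14 to 2.01), and it ranked 1 of the 22746 by p. Its adjusted p of 0.0823 (limma) still missed the threshold of 0.05, and 888 probe sets (3.9%) had an unadjusted p under 0.05 in that fit. The DREB2A difference between these dyes had been seen in earlier work on the same arrays, so its first place is not independent support.

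MV minus control for DREB2A was 1.17 (0.01 to 2.32), or 2.24-fold, with an adjusted p of 1.00 and rank 730 (limma). The block left an interval of 0.73 to 1.60, with rank 2 and an adjusted p of 0.579 (limma). Without the block, leaving out single arrays moved MV minus control between 0.78 (without control replicate 1) and 1.63 (without control replicate 2). IC minus control was -0.41 (-1.56 to 0.75, adjusted p = 1.00 by limma), and the interval with the block was -0.85 to 0.03. In both comparisons 0% of probe sets were called with or without the block. The count at an unadjusted p under 0.05 in limma was 758 (3.33%) for MV and 374 (1.64%) for IC. With the block it was 1272 (5.59%) for MV and 504 (2.22%) for IC.

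MBF1C was called in none of its 3 comparisons here, with adjusted p of 1.00 in each (limma). Its signals were 11.02, 11.94 and 10.64 in MV, 9.78, 11.18 and 10.45 in IC, and 9.69, 11.13 and 10.78 in their control, and the ranges overlapped widely. MV minus IC was 0.73 (95% interval -0.55 to 2.0) and MV minus control 0.67 (-0.61 to 1.94). Leaving out single arrays moved MV minus IC between 0.36 (without MV replicate 2) and 1.08 (without IC replicate 2), and MV minus control between 0.24 (without control replicate 1) and 0.96 (without control replicate 2). Between arrays of the same number, MV exceeded IC by 1.24, 0.76 and 0.19, and MV minus control was 1.33, 0.81 and -0.14. With the block the interval of MV minus IC was 0.07 to 1.39, with an adjusted p of 1.00 (limma). IC minus control was -0.06 (-1.34 to 1.21), with 0.09, 0.05 and -0.33 between arrays of the same number.

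HSFA8 read 7.45, 7.36 and 7.16 in MV, 7.28, 7.38 and 6.93 in IC, and 7.31, 6.79 and 7.25 in their control. The groups overlapped, with means of 7.32 ± 0.148 in MV, 7.19 ± 0.236 in IC and 7.12 ± 0.284 in control (SD, n = 3 each). MV minus control was 0.20 (95% interval -0.33 to 0.73), IC minus control 0.08 (-0.45 to 0.61) and MV minus IC 0.13 (-0.40 to 0.66), each with an adjusted p of 1.00 (limma). Within replicate numbers the sign was mixed, with MV minus IC at 0.17, -0.02 and 0.23 and MV minus control at 0.14, 0.57 and -0.09.

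**Figure D2:**
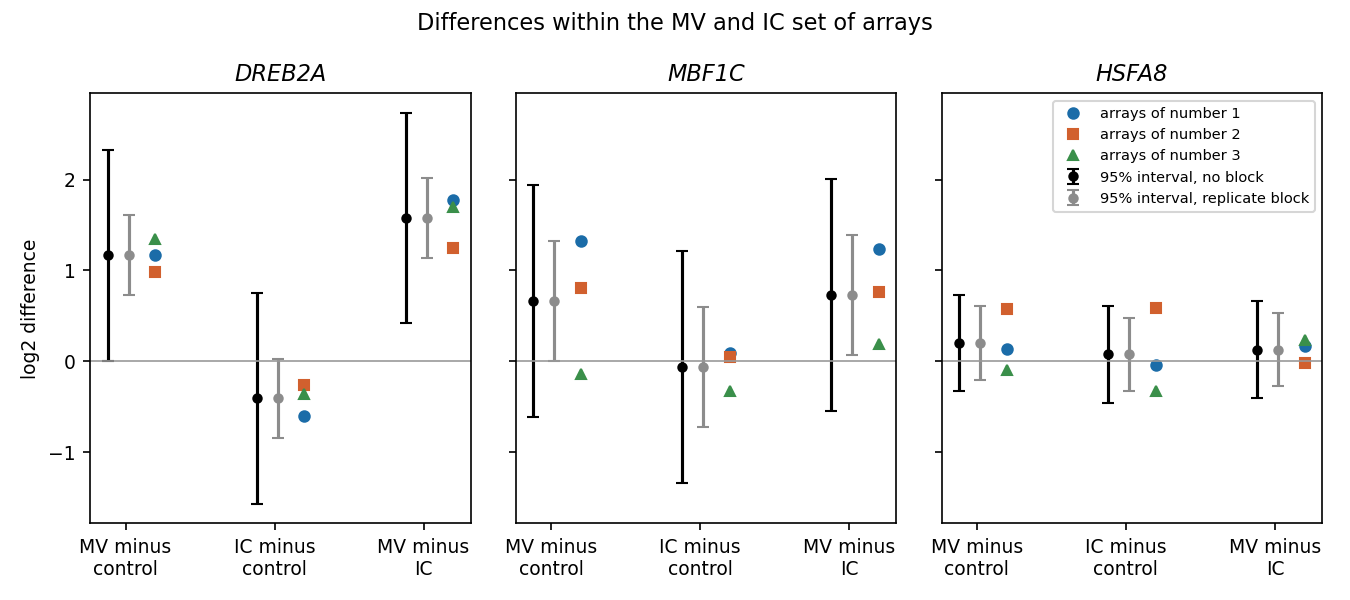
Log2 differences (y axis) of DREB2A, MBF1C and HSFA8 for MV minus control, IC minus control and MV minus IC (x axis), with the limma estimate and 95% interval without a block in black and with the replicate block in grey, and the 3 same-number differences as coloured symbols. The DREB2A symbols for MV minus IC lie between 1.24 and 1.78, and the block narrows its interval to 1.14 to 2.01.

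The control cultures of the sets differed in their levels of DREB2A and MBF1C. DREB2A averaged 6.76 ± 0.862 in the control of MV and IC, against 4.49 ± 0.449 in the control of RB and HP (SD, n = 3 each). That is a difference of 2.28 (1.12 to 3.43), or 4.84-fold, and the lower mean lay below the lowest array median of 4.92. MBF1C averaged 10.53 ± 0.751 in the control of MV and IC and 7.03 ± 1.22 in the control of RB and HP, a difference of 3.51 (2.23 to 4.78), or 11.4-fold. HSFA8 averaged 7.12 in the control of MV and IC and 7.03 in the control of RB and HP, a difference of 0.08. DREB2A and MBF1C were thus among the probe sets called higher in the control of MV and IC, 2 of the 3 genes where 4.65% of all probe sets were called higher. The choice of the genes rested on arrays of the control of RB and HP, which enter this contrast too. Nothing is therefore read from that count. The named markers also differed between the controls, with medians of 11.37 in the control of MV and IC and 10.64 in the control of RB and HP for RCA. For XCP1 they were 12.02 in the control of MV and IC and 10.44 in the control of RB and HP, and likewise 9.43 against 8.12 for IRX3 and 3.16 against 3.42 for FAMA, and their part in the difference was not tested. Each control belongs to its own set of arrays, so that control and set cannot be told apart, and the differences of RB and HP rest on the lower of the controls.

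Ordered by mean over all 6 groups, DREB2A ran RB, MV (7.93 ± 0.757), HP, the control of MV and IC, IC (6.35 ± 1.03) and the control of RB and HP. Neighbours in that order overlapped except RB over MV, with a gap of 0.17 between the nearest arrays, and IC over the control of RB and HP, with a gap of 0.44. MBF1C ran MV (11.20 ± 0.668), RB, the control of MV and IC, IC (10.47 ± 0.701), HP and the control of RB and HP, and only HP over that last control was free of overlap, by 0.66. The MBF1C ranges of RB-treated cells and of untreated cells of the MV and IC set overlapped. For HSFA8 the order was RB, HP, MV, IC and then the controls, and only RB over HP was free of overlap, by 0.79.

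DREB2A has close relatives in the DREB2 subfamily. Of the 7 listed, 1 is not named in the annotation used here, and DREB2B was not read. Probe sets named by the platform annotation exist for DREB2D, DREB2F, DREB2G and, shared by both, DREB2C and DREB2H. None of these 4 probe sets was called after RB, HP, MV or IC. Over all probe sets 1.44% were called higher for RB, 0.629% for HP and 0% for MV and IC. At an unadjusted p under 0.05 (limma) the count was 1 for RB and for HP, DREB2C/DREB2H in both, and 0 for MV and IC. Over all probe sets that share was 14.9% for RB, 12.7% for HP, 3.33% for MV and 1.64% for IC. Nothing is read from counts over 4 probe sets. DREB2C/DREB2H averaged 6.25 in HP and 5.21 in the control of RB and HP, a difference of 1.04 (0.52 to 1.57, adjusted p = 0.0725 by limma), and it averaged 5.92 in RB, 0.71 above that control (adjusted p = 0.159 by limma). The block called both (adjusted p = 0.00809 for HP and 0.0322 for RB by limma), where it called 1.77% of all probe sets higher for HP and 3.56% for RB. DREB2D, DREB2F and DREB2G differed from control by -0.24 to -0.02 under RB and -0.33 to -0.27 under HP. Their means in RB, HP and that control were low, 3.55 to 4.06, where the lowest array median was 4.92. DREB2E, named only through the study's tables and so given without a test here, was 0.77 above control in RB and 0.21 in HP.

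Genes that DREB-type factors activate through the dehydration-responsive element encode mostly cold- and drought-induced protective proteins. Of 4 platform-named probe sets (COR15A, COR15B, COR47 and KIN1/KIN2), 0 of 4 were called after RB, HP, MV or IC, with RB differences of 0.22 to 0.67 and HP differences of -0.10 to 0.20. Over all probe sets 1.44% were called higher for RB, 0.629% for HP and 0% for MV and IC, so nothing is read from 0 of 4. At an unadjusted p under 0.05 (limma) the count was 1 for RB, COR15B, and 0 for HP, MV and IC. Over all probe sets that share was 14.9% for RB, 12.7% for HP, 3.33% for MV and 1.64% for IC. With the block COR47, a dehydrin, was called in RB at 0.67 (adjusted p = 0.0381 by limma), where 3.56% of all probe sets were called higher. Only the tables name RD29B and CBF1, so they are described without a test. The desiccation-induced RD29B averaged 4.31 in HP and 5.13 in the control of RB and HP, a difference of -0.81. CBF1, of the related DREB1 subfamily, averaged 3.53 in RB and 3.09 in that control, a difference of 0.45. Both CBF1 means and the RD29B mean in HP lay below the lowest array median of 4.92.

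Over all lists of pathway genes other than the 3 regulators, 72 loci were listed, of which 10 had a platform name (8 probe sets), 16 were named only through the study's tables and 46 are not named here. The 8 platform-named probe sets had a median difference of 0.29 under RB, -0.08 under HP, 0.12 under MV and -0.06 under IC, against medians of 0.02, -0.02, 0.01 and -0.00 over all probe sets. The 16 table-named loci had entered those tables through their change under RB or HP, so their values there are a description and nothing is read from their counts. Called higher were 3 of 16 under RB, where 1.44% of all probe sets were, and 2 of 16 under HP, against 0.629%. With the block it was 14 of 16 under RB, against 3.56%, and 5 of 16 under HP, against 1.77%, with RD29B called lower there. The 2 listed relatives of MBF1C are not named. Of the 20 listed heat shock factor genes other than HSFA8, 16 are not named, and HSFA3 was not read. Among the heat shock factors that are named, HSFB2B, a repressor-class factor, averaged 5.04 in RB and 3.63 in control, a difference of 1.41. HSFA4A, a class A factor, averaged 8.63 in HP and 7.51 in control, a difference of 1.12. HSFA2, the factor most strongly induced by heat, averaged 5.28 in RB and 3.12 in control, a difference of 2.16. The control means of HSFB2B and HSFA2 lay below the lowest array median of 4.92.

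Most targets of heat shock factors are chaperones. HSP70 averaged 11.35 in RB and 10.46 in HP, against 7.99 in the control of RB and HP, differences of 3.36 and 2.48 that are again a description. It averaged 12.73 in MV and 12.70 in IC, and 12.70 in their control. HSP90.2 was 1.72 above control in RB, and HSP17.6A had the largest RB difference of the list, 4.19. All 9 table-named targets were higher in the control of MV and IC than in the control of RB and HP, by 2.01 to 4.71 with a median of 3.32, and 5 of the 9 were called higher, where 4.65% of all probe sets were. These were HSP70, HSP90.1, HSP101, GolS1 and HSP90.2, named here after their values were seen. Their choice rested on arrays of the control of RB and HP, which enter this contrast too, so nothing is read from that count.

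Of the 3 regulators and 9 targets, only DREB2A had 95% intervals above 0 in MV minus control and MV minus IC in the fit without a block. With the block those of MBF1C, 0.0067 to 1.33 and 0.07 to 1.39, lay above 0 as well. Intervals with the block are given for the 3 regulators only, so the 9 targets are not compared in that fit. None of these intervals is adjusted for the number of probe sets. Without a block, the DREB2A interval of MV minus control spanned 0 when control replicate 1 or 3 or MV replicate 2 or 3 was left out. That of MV minus IC spanned 0 without MV replicate 2 or without IC replicate 1. Of the 16 table-named loci, 16 had a positive MV minus IC difference, from 0.03 to 1.14 with a median of 0.31, and 15 a positive MV minus control difference, with a median of 0.24 and HSP90.2 as the exception. Over all probe sets 50.7% were positive for MV minus IC and 52.1% for MV minus control, with medians of 0.00 and 0.01. For IC minus control 4 of the 16 were positive (BAG6, HSP70, HSFA4A and HSFB2B). None of the 16 was called, and 0 of 16 had an unadjusted p under 0.05 in MV minus IC by limma, against 1.97% of all probe sets. The 16 were read on the same arrays, so their signs are not independent and nothing is read from the counts of signs.

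**Figure D3:**
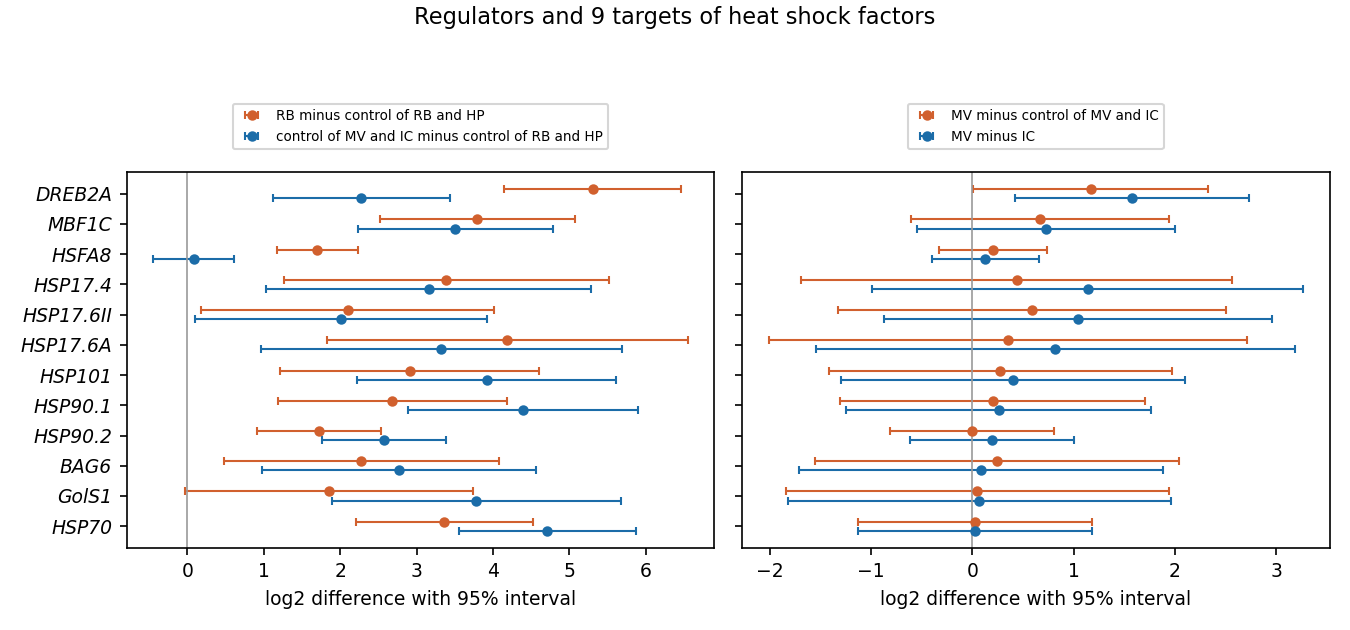
Log2 difference with its 95% interval from limma without a block (x axes) for the 3 regulators and the 9 named targets of heat shock factors (y axis), with RB minus its control and the control of MV and IC minus the control of RB and HP on the left and MV minus control and MV minus IC on the right. HSFA8 alone lies near 0 between the controls (0.08), and on the right, without a block, only the DREB2A intervals lie above 0. The intervals are not adjusted for the number of probe sets.

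Among 13436 probe sets that the platform annotation assigns to exactly 1 locus, the profiles most like each regulator were found by the root mean square difference of log2 signals over the 18 arrays, after subtracting each probe set's own mean. Since they were picked for likeness, an order of groups shared with the regulator follows from that choice. MBF1C had the closest match relative to its own variation. AT2G20560, a DNAJ heat shock protein of the co-chaperone type, differed from MBF1C by 0.415, while MBF1C itself varied by 1.56 around its mean. AT2G20560 averaged 7.56 in RB, 6.42 in HP and 4.43 in their control, and 8.30 in MV, 7.95 in IC and 8.06 in their control. AT1G66080 and AT1G54050, an HSP20-like chaperone, followed at 0.713 and 0.724.

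For DREB2A, which varied by 1.72, the nearest profile was AT1G14200, a RING/U-box protein, at 0.794. It averaged 9.32 in RB, 6.39 in HP and 5.85 in their control, and 8.11 in MV, 7.34 in IC and 7.33 in their control. AT1G66080 at 0.992 and the HSP20-like AT2G29500 at 1.09 came next, close to MBF1C at 1.12, with HSFA8 at 1.32. HSFA8, which varied by 0.638, was nearest to SAG101, a lipase-like partner in immune signalling, at 0.262, to AT5G64870, of the SPFH/Band 7 membrane-associated family, at 0.279 and to ARL, an ARGOS-like regulator of organ size, at 0.299. SAG101 averaged 6.20 in RB, 5.54 in HP and 5.11 in their control, and 4.92 in MV, 4.96 in IC and 4.83 in their control. Between the controls its neighbours differed little in mean, with 7.97 and 7.91 for AT5G64870 and 7.60 and 7.79 for ARL (MV and IC control, then RB and HP control), where AT2G20560 had 8.06 and 4.43.

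**Figure D4:**
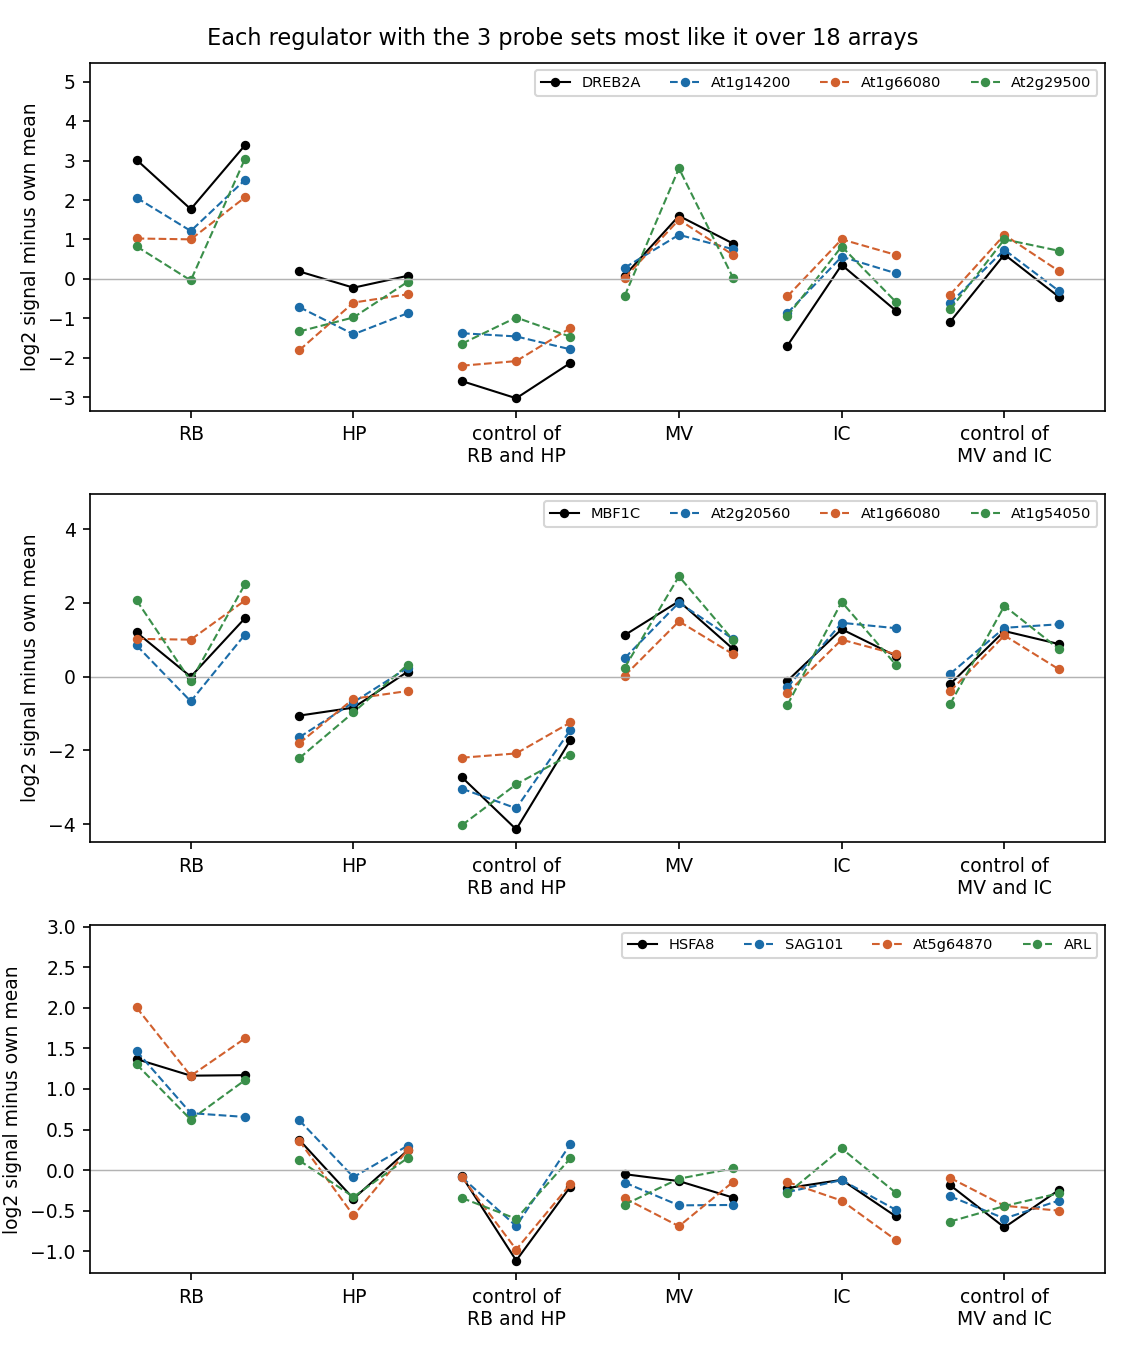
Log2 signal minus each probe set's own mean over 18 arrays (y axis) for each regulator in black and its 3 nearest platform-named probe sets in colour, with the 3 arrays of each group (x axis) in the order of replicate number. The probe sets near MBF1C have their lowest mean in the control of RB and HP, and those near HSFA8 have their highest mean in RB. Both follow from the choice by likeness.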

How the data were processed

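Total RNA of 18 samples was hybridized to Affymetrix ATH1 arrays. The authors applied quantile normalization and RMA to the probes (affy and RMA in the submitters' processing notes, versions not given in the sources used here), and the deposited values are log2 signals. Whether all arrays were normalized in 1 run was not stated. Arrays carry no reading depth, and their number limits the precision (median 95% half-interval 0.392 on the log2 scale).

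Values of 22746 probe sets, without 64 control probe sets, were fitted in R 4.3.3 with limma 3.58.1 as 6 groups sharing 1 estimate of the spread (12 residual and 3.37 prior degrees of freedom), and p-values were adjusted by Benjamini and Hochberg over all of them. Calls needed an adjusted p under 0.05. The methods name limma and no block. Array titles assign each control to the treated arrays of its number, so a fit with the replicate number as a block (8 residual degrees of freedom, 4.63 prior ones) is given beside it. Deviations of same-number arrays correlated with means of 0.161 (MV and control, lowest -0.333) to 0.563 (HP and control). Labels call the replicates biological without naming separate cultures, so p-values measure the spread between these arrays.

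The platform annotation lists 14016 probe sets, and the study's tables of changed transcripts name 895 more. Only the names in those tables were used, and their fold changes and p-values were not. Over the probe sets fitted and the controls, 14294 had exactly 1 locus, 540 several and 7976 none. No sequence was used here, so promoters were not searched, and no coordinates are given because the files name no build. The text names the 3 regulators, the DREB2 relatives, the loci called or most changed under RB or HP in each list, and the 3 nearest profiles. The members and lists were chosen with earlier results of these data known. The fit was tested on simulated data. Plots came from matplotlib 3.10.9 under Python 3.11.15.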

Additional observations from a re-analysis of the deposited data

How the results depend on the processing

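Alternatives were another estimate of the spread, another normalization or centring, a filter on dim probe sets, the control probe sets kept, all 6 controls as 1 group, the replicate block, and leaving out each array. Fits that combine the replicate block with another choice were chosen after seeing the data. Of the values recomputed, 393 kept their direction and their side of the threshold, or moved less than the spread. Another 12 changed direction, 8 moved further or changed a count, and 1 newly passed the threshold. With the replicate block and an eBayes trend, MV minus IC for DREB2A (1.57) passed the threshold (adjusted p = 0.0389), and the other combinations that kept all arrays gave adjusted p between 0.0558 and 0.176, where the cause was not tested. Leaving out 1 replicate number with the block gave 1.47 to 1.74 and adjusted p of 0.258 to 1.00, on fewer arrays, and leaving out single arrays gave 1.09 to 2.11.

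With all 6 controls as 1 group, which adds controls of the other set, IC minus control turned to 0.73 for DREB2A and 1.69 for MBF1C. RB minus control became 4.17 for DREB2A and 2.04 for MBF1C, HP minus control 1.46 and 0.53, and MV minus control 2.30 and 2.42. Leaving out arrays one at a time moved IC minus control between -0.94 and 0.081 for DREB2A, -0.48 and 0.28 for MBF1C, and -0.087 and 0.21 for HSFA8, and MV minus IC between -0.0043 and 0.22 for HSFA8. With the block and 1 replicate number left out, IC minus control lay between -0.14 and 0.070 for MBF1C and -0.18 and 0.28 for HSFA8, so the sign of these small differences rests on single arrays. The replicate block called 2 of the 8 platform-named pathway probe sets under RB and 1 under HP, where the fit without it called 0. Over all probe sets the block called 3.56% higher under RB and 1.77% under HP. Leaving out single arrays gave 0 to 1 of 8 under RB, with 1 only without replicate 1 of the control of RB and HP, and 0 to 1 under HP, with 1 only without replicate 3 of that control. Outside these, and the calls named in the report, the pairing by replicate number changed no call of the 3 regulators.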
